A study of Mus musculus with 8 samples.

Results

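Heart RNA of mice given isoproterenol was compared with heart RNA of mice given saline, with both genotypes of the study pooled and genotype kept as a block. The comparison used 4 isoproterenol libraries and 4 saline libraries, chosen by the treatment named in each sample's label, which are all 8 libraries of the series. The groups were WT isoproterenol, Set7KO isoproterenol, WT saline and Set7KO saline, with 2 libraries in each. WT mice were wild type, and Set7KO mice carried a global knockout of Set7, the lysine methyltransferase encoded by Setd7, bred from heterozygous crossings. Isoproterenol was injected under the skin at 60 mg/kg for 14 consecutive days, and saline was given over the same days. Age, strain and sex were not given in the sources used here. Nothing in the labels ties a library to 1 animal, and the p-values therefore reflect only the spread among these libraries, which may in part be technical. By its title, the study asks about fibrosis and heart failure after isoproterenol.

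Isoproterenol is a synthetic catecholamine that activates beta-adrenergic receptors. In cardiomyocytes these receptors raise cyclic AMP and activate protein kinase A, which speeds and strengthens contraction. Sustained stimulation is a standard rodent model of cardiac hypertrophy and fibrosis. The adult heart draws most of its energy from fatty acids, and the nuclear receptor PPAR-alpha, activated by fatty acids, drives many of the genes for their uptake, storage and oxidation.

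The libraries held 27847069 to 51705705 counts assigned to genes, and 17636 genes were tested. Levels are given as CPM, counts scaled to the normalised library size, and 4 values of a treatment are listed as WT replicate 1, WT replicate 2, Set7KO replicate 1 and Set7KO replicate 2. Setd7 had 58.1, 72.6, 3.79 and 3.92 CPM in the isoproterenol libraries and 43.7, 43.0, 4.45 and 5.70 CPM in the saline libraries, so each library stood with its labelled genotype. The sample titles also carry a letter whose meaning was not given in the sources used here: A for Set7KO isoproterenol, D for WT isoproterenol, B for Set7KO saline replicate 1, and C for Set7KO saline replicate 2 and both WT saline libraries. No letter occurs in both treatments, so whatever it marks cannot be told apart from treatment. The libraries were not ordered by treatment alone. The log2 level of genes of high GC content relative to genes of low GC content was -1.13 and -0.82 in the WT isoproterenol libraries, 0.20 and 0.67 in the Set7KO isoproterenol libraries, 0.59 and 0.90 in the WT saline libraries, and 0.37 and -0.96 in the Set7KO saline libraries. The cardiac myosin gene Myh6 was abundant in every library. Of the 18 symbols listed for lung, thymus and skeletal muscle, 4 passed the filter on low counts, and the lung genes Sftpc and Scgb1a1 had 0 counts in each library.

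Averaged over genotypes, isoproterenol changed few genes beyond the spread between libraries. Lipid and carbohydrate enzymes and regulators (Scd4, Acot1, Angptl4 and Fbp2) fell, as did the endothelin ligand Edn3, the secretoglobin Scgb1c1 and the clone-named gene AC153155.1, while the secreted carboxypeptidase-like protein Cpxm2 and the transcription factor Pou3f1 rose. In edgeR's quasi-likelihood test with Benjamini-Hochberg adjustment, 9 genes passed an adjusted p of 0.05, which is 0.051% of the genes tested. Of these, 2 were higher (0.0113%) and 7 lower (0.0397%) after isoproterenol. At an unadjusted p under 0.05, 793 genes stood higher (4.5%) and 864 lower (4.9%). The 4 isoproterenol libraries all lay above the 4 saline libraries for 373 genes (2.11%) and all below them for 355 genes (2.01%), and the 9 genes belong to these. DESeq2, run as an alternative, called 87 genes higher (0.493%) and 164 lower (0.93%), again with the 9 among them.

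The count of 9 rested on single libraries. No gene passed in edgeR without WT isoproterenol replicate 1 or 2, Set7KO isoproterenol replicate 1, or WT saline replicate 1 or 2, and 2 genes passed without Set7KO isoproterenol replicate 2. The lowest adjusted p in the 5 fits with no gene was between 0.0526 and 0.139, and 910 to 1886 genes had an unadjusted p under 0.05 in them. Without Set7KO saline replicate 1 the number was 34, and without Set7KO saline replicate 2 it was 42, the 9 among them in both. In each of these fits 1 group held a single library, which was assumed to vary like the others. An additive model, in which both genotypes share 1 treatment effect, called 1 gene, Scd4. The direction of the 9 genes was the same in all 18 alternatives, which refit the same counts. Leaving out a library could hardly turn it, because these genes did not overlap between the treatments.

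**Figure D1:**
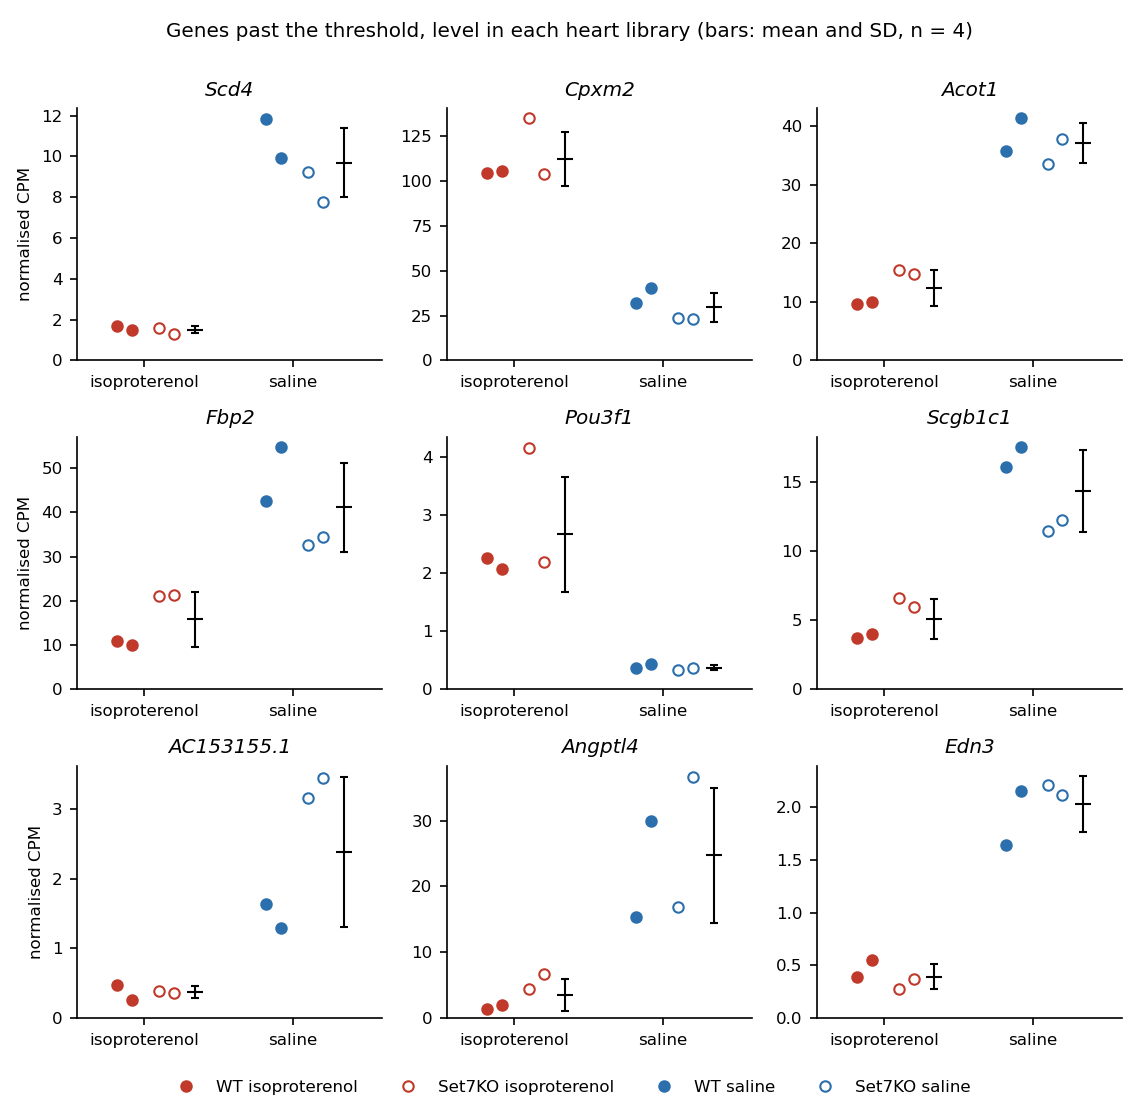
Normalised CPM of the 9 genes past the threshold in each heart library, with isoproterenol on the left and saline on the right of each panel, WT as filled and Set7KO as open circles, and mean and SD over 4 libraries as bars. In every panel the 4 isoproterenol libraries are separate from the 4 saline libraries, as for Scd4, with at most 1.70 CPM after isoproterenol and at least 7.77 CPM after saline.

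Scd4 encodes a stearoyl-CoA desaturase, an enzyme that makes monounsaturated fatty acids, and in mice its transcript is known from the heart. Scd4 (ENSMUSG00000050195, chromosome 19, 44333092 to 44346743, plus strand, GRCm38) had 1.70, 1.5, 1.57 and 1.28 CPM in the isoproterenol libraries and 11.8, 9.91, 9.23 and 7.77 CPM in the saline libraries. The levels were close to each other within a treatment and did not overlap between treatments. Scd4 fell 6.34-fold (log2 fold change -2.67 ± 0.20 SE, adjusted p = 0.0124, n = 4 each, edgeR), by 2.76 on the log2 scale in WT and by 2.57 in Set7KO. The related desaturase Scd1 stood the other way, with 15.5, 24.2, 17.6 and 10.9 CPM after isoproterenol and 6.94, 9.12, 9.91 and 6.68 CPM after saline, without overlap but not past the threshold (log2 fold change 1.04 ± 0.26, adjusted p = 0.241). Scd genes are close paralogs, and the handling of reads that match several paralogs was not given in the sources used here.

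Angptl4 encodes a secreted inhibitor of lipoprotein lipase and is a textbook target of the PPAR receptors. Angptl4 (ENSMUSG00000002289, chromosome 17, 33773750 to 33781830) had 1.32, 1.93, 4.34 and 6.62 CPM in the isoproterenol libraries and 15.4, 30.0, 16.8 and 36.5 CPM in the saline libraries. All 4 isoproterenol libraries were lower than all 4 saline libraries, and the WT isoproterenol libraries were the lowest. The fall was 8.27-fold (log2 fold change -3.05 ± 0.35, adjusted p = 0.0406, n = 4 each, edgeR). With offsets for the GC content and length of genes the log2 fold change was -3.00 and the adjusted p was 0.0627, so that Angptl4 alone of the 9 did not pass.

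Acot1 encodes a cytosolic thioesterase that splits fatty acyl-CoA into free fatty acid and coenzyme A, and is also known as a PPAR-alpha target. Acot1 (ENSMUSG00000072949, chromosome 12, 84009490 to 84018371, plus strand) had 9.58, 9.93, 15.4 and 14.7 CPM in the isoproterenol libraries and 35.9, 41.5, 33.5 and 37.9 CPM in the saline libraries. It fell 3.07-fold (log2 fold change -1.62 ± 0.15, adjusted p = 0.0189, n = 4 each, edgeR), and the groups did not overlap. Its mitochondrial paralog Acot2, which lies near it on chromosome 12, had 40.4, 30.6, 53.7 and 47.8 CPM after isoproterenol and 101.7, 93.9, 80.7 and 87.3 CPM after saline. Acot2 did not pass (log2 fold change -1.09 ± 0.15, adjusted p = 0.0769), although its groups did not overlap either, and reads of the pair could be shared.

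Fbp2 encodes the muscle form of fructose bisphosphatase, which turns glycolysis back towards glycogen. Fbp2 (ENSMUSG00000021456, chromosome 13, 62836877 to 62858422, minus strand) had 10.8, 10.0, 21 and 21.4 CPM in the isoproterenol libraries and 42.6, 54.8, 32.7 and 34.3 CPM in the saline libraries. It fell 2.72-fold on average (log2 fold change -1.44 ± 0.15, adjusted p = 0.0357, n = 4 each, edgeR). The log2 fold change was -2.23 in WT and -0.66 in Set7KO; the difference between them had an unadjusted p of 0.000749 and an adjusted p of 0.0876, which did not pass.

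Cpxm2 encodes a secreted protein of the carboxypeptidase family that is thought to lack enzymatic activity. Cpxm2 (ENSMUSG00000030862, chromosome 7, 132032687 to 132154739, minus strand) had 104.5, 105.4, 134.9 and 104.0 CPM in the isoproterenol libraries and 31.8, 40.2, 23.6 and 23.3 CPM in the saline libraries. Every isoproterenol library was far above the highest saline library. Cpxm2 rose 3.86-fold (log2 fold change 1.95 ± 0.16, adjusted p = 0.0128, n = 4 each, edgeR), by 1.54 on the log2 scale in WT and by 2.35 in Set7KO. Pou3f1, a POU-domain transcription factor known from Schwann cells and the nervous system, was scarce but rose as well, with 2.27, 2.08, 4.16 and 2.20 CPM after isoproterenol and 0.373, 0.431, 0.325 and 0.359 CPM after saline. Its log2 fold change was 2.81 ± 0.30 (adjusted p = 0.0357, edgeR).

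Edn3 encodes a peptide that binds the endothelin receptors. Edn3 (ENSMUSG00000027524, chromosome 2, 174760619 to 174784042) had 0.386, 0.548, 0.271 and 0.366 CPM in the isoproterenol libraries and 1.64, 2.15, 2.21 and 2.11 CPM in the saline libraries, and fell 5.25-fold (log2 fold change -2.39 ± 0.28, adjusted p = 0.0406, n = 4 each, edgeR). Of the 14 measured genes for endothelins, natriuretic peptides, their receptors and processing enzymes, Edn3 was the 1 member past the threshold. The endothelin receptor Ednrb stood higher, with 10.9, 8.46, 7.08 and 4.21 CPM after isoproterenol and 4.48, 4.44, 6.14 and 4.11 CPM after saline (log2 fold change 0.63 ± 0.24, adjusted p = 0.460), and its groups overlapped. Scgb1c1, a small secreted protein of the secretoglobin family, had 3.72, 4.04, 6.63 and 5.96 CPM after isoproterenol and 16.1, 17.6, 11.5 and 12.3 CPM after saline (log2 fold change -1.52 ± 0.17, adjusted p = 0.0357, edgeR). AC153155.1, to which the annotation gives no role, had 0.477, 0.260, 0.392 and 0.366 CPM after isoproterenol and 1.64, 1.29, 3.15 and 3.45 CPM after saline (log2 fold change -2.54 ± 0.29, adjusted p = 0.0406, edgeR).

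The sequences before the RefSeq transcription start are shown for the 4 genes with the smallest p. Each holds 250 bases upstream of the RefSeq start in GRCm38.p6, written on the gene's strand, and capitals mark motif matches. RefSeq's table held an upstream window for 6 of the 9 genes. The windows are chr19:44333076-44333325 (plus strand) for Scd4, chr7:132154742-132154991 (minus strand) for Cpxm2, chr12:84009252-84009501 (plus strand) for Acot1 and chr13:62858401-62858650 (minus strand) for Fbp2. RefSeq's start and the GENCODE gene whose counts are given differ: 234 bases of the Scd4 window, 12 of the Acot1 window and 22 of the Fbp2 window lie inside the GENCODE gene, and 0 of the Cpxm2 window.
Scd4: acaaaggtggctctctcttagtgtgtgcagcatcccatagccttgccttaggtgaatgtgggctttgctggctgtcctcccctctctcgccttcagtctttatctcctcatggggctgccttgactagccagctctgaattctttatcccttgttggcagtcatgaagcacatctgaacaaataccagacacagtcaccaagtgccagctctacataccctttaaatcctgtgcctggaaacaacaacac
Cpxm2: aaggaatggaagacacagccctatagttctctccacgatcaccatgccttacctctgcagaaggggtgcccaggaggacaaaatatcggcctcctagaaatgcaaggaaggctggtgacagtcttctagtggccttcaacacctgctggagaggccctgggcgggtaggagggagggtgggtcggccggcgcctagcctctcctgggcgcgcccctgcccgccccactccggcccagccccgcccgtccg
Acot1: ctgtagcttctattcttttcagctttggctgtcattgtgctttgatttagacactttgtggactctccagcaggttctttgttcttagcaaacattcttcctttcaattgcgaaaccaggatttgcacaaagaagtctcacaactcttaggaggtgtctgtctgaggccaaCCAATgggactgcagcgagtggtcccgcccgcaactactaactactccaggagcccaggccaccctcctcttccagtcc
Fbp2: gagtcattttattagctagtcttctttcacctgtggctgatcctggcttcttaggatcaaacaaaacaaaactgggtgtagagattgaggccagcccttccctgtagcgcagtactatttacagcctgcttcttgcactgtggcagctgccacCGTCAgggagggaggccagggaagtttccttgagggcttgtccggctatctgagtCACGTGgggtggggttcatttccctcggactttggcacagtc
On both strands the windows were searched for the cyclic AMP response element (TGACGTCA), its core (TGACG), the E-box bound by clock and other basic helix-loop-helix factors (CACGTG), the CCAAT box (CCAAT) and the direct repeat bound by PPAR (named DR1, 2 copies of AGGNCA separated by 1 base). In Acot1 the CCAAT box began 79 bases before the start. In Fbp2 the core of the cyclic AMP response element on the minus strand lay 97 bases and the E-box, which reads the same on both strands, 42 bases before the start. No match of the 5 motifs lay in the windows of Scd4, Cpxm2, Scgb1c1 or Edn3. Among 32851 windows of the same length, 1.55% held the full cyclic AMP response element, 17.8% its core, 6.02% the E-box, 33.9% the CCAAT box and 0.338% DR1. A match is a description of these letters and not of binding.

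For most genes the effects in WT and in Set7KO had opposite signs when every library was kept, with or without GC and length offsets. Across the 17636 genes, the log2 fold changes of WT and Set7KO, which share no library, had the same sign for 31.1% of genes, with Pearson's r of -0.259 and Spearman's rho of -0.415 across genes, which are not independent replicates. With GC and length offsets the shared sign held for 43.4% of genes (r = -0.0458), and when Set7KO saline replicate 2 was also left out for 51.4% of 18172 genes (r = 0.117). In edgeR the interaction of genotype and treatment passed for 0 genes (0%) at an adjusted p of 0.05, with a lowest adjusted p of 0.0876. At an unadjusted p under 0.05 it was found for 5400 genes (30.6%) in edgeR, and for 2501 genes with GC and length offsets. DESeq2 called 2321 of the 17636 genes. The interaction count was 5778 without Set7KO saline replicate 1 and 1 without Set7KO saline replicate 2.

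Genes that stood apart by treatment without passing the threshold were taken by rule, 10 in each direction, from genes with no overlap between the 4 isoproterenol and the 4 saline libraries and a mean of at least 2 CPM. Higher after isoproterenol were Ahnak2, Ptprn, Bambi, D7Ertd443e, Astn2, Wif1, Tac1, Sprr1a, Lgi3 and Lgals3. Lower, among others, were Slc25a22, Ogdhl, Ucp3, Acot2, Trim7, Scn4b, Plin5, H2-Aa and Ech1. Their adjusted p lay between 0.0651 and 0.118 in edgeR.

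Several of the higher genes encode secreted or surface proteins. Wif1, a secreted inhibitor of Wnt ligands, had 5.76, 4.56, 13.4 and 14.0 CPM after isoproterenol and 1.38, 3.78, 1.66 and 1.71 CPM after saline (log2 fold change 2.01 ± 0.31). Lgals3, which encodes galectin-3, a lectin of macrophages and injured tissue, had 25.1, 9.06, 34.7 and 24.4 CPM after isoproterenol and 5.30, 6.17, 5.33 and 6.08 CPM after saline (1.97 ± 0.32). The level of both was nearly flat across most saline libraries and spread out after isoproterenol. Bambi, a decoy receptor for TGF-beta and BMP ligands, had 36, 34.7, 45.8 and 36 CPM against 19.0, 20.4, 17.6 and 14.3 CPM after saline (1.10 ± 0.16). Tac1, the precursor of substance P, had 6.78, 3.32, 4.73 and 5.45 CPM against 1.05, 0.530, 0.553 and 1.36 CPM after saline (2.53 ± 0.39). Sprr1a, a small proline-rich protein known as a stress-induced gene of cardiomyocytes, had 10.7, 1.01, 3.49 and 2.34 CPM after isoproterenol, while after saline it held at most 4 counts in a library, so that no fold is given.

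Among the lower genes were transport and oxidation genes of mitochondria. Slc25a22, a mitochondrial glutamate carrier, had 24.6, 29.8, 32.4 and 36.7 CPM after isoproterenol and 77.9, 62.8, 67.6 and 77.5 CPM after saline (log2 fold change -1.22 ± 0.16). Ogdhl, a relative of the oxoglutarate dehydrogenase of the citric acid cycle, had 109.9, 178.6, 154.0 and 164.3 CPM against 402.3, 450.3, 333.9 and 411.7 CPM after saline (-1.40 ± 0.19). For both genes every isoproterenol value was below every saline value. Scn4b, a beta subunit of the cardiac sodium channel, had 13.8, 16.2, 14.3 and 15.2 CPM against 46.6, 94.0, 22.8 and 31.1 CPM after saline (-1.55 ± 0.24), and was the member with the smallest p among 24 measured ion channel genes.

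**Figure D2:**
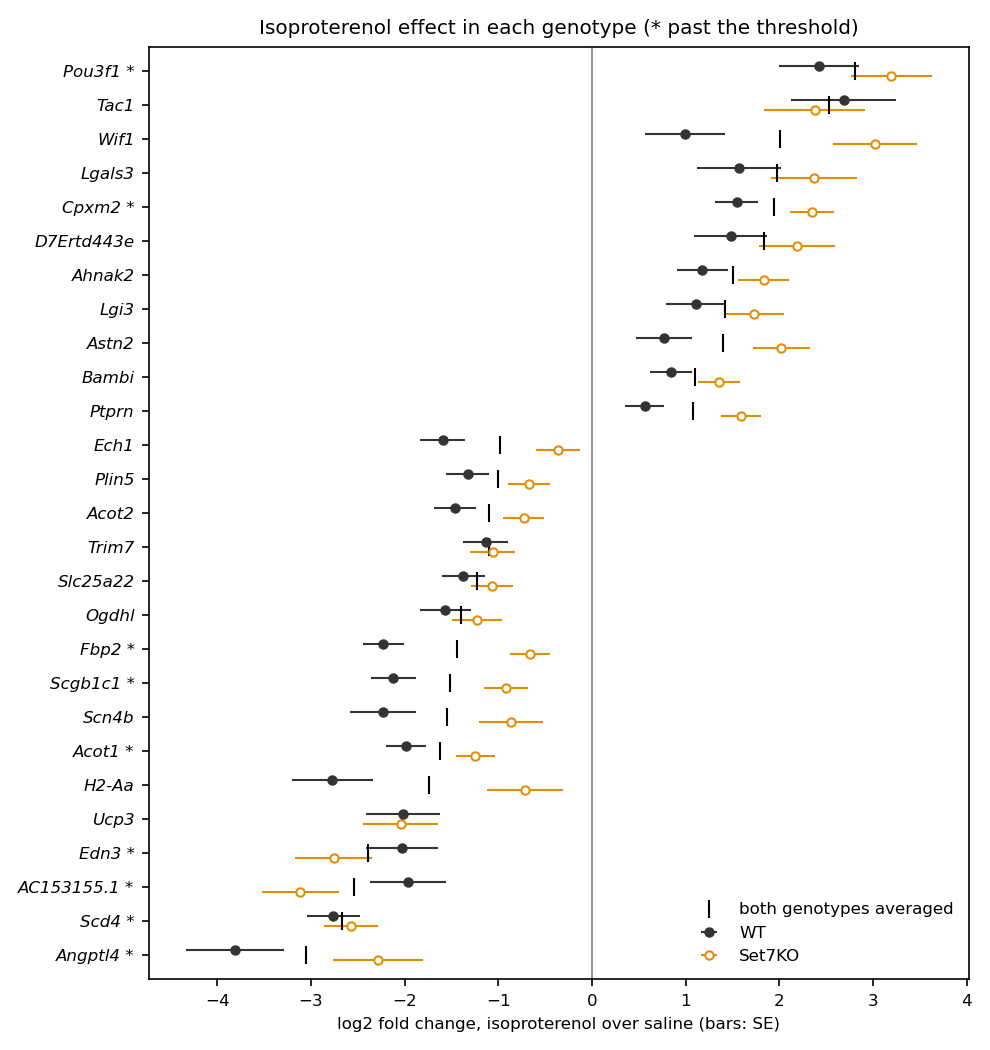
Log2 fold change of isoproterenol over saline with its SE in WT (filled circles) and in Set7KO (open circles), and the average over genotypes (vertical ticks), for the genes past the threshold (asterisks) and the named genes selected by non-overlap. Both genotypes lie on the same side of 0 for each gene, which the selection by non-overlap fixes; Sprr1a is not drawn because its mean saline level is under the floor set by 3 counts.

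PPAR targets and lipid storage genes stood lower after isoproterenol. All 30 listed genes were measured; 2 fell (Acot1 and Angptl4), 0 rose, and 27 of 30 had a log2 fold change below 0, with a median of -0.55 against 0.02 over all genes tested. At an unadjusted p under 0.05, 16 stood lower and 1 higher. Over all genes tested, 4.9% stood lower and 4.5% higher at this p, the background for this list and those below. Ucp3, a mitochondrial uncoupling protein of muscle, had 13.3, 15, 18.4 and 18.3 CPM after isoproterenol and 71.3, 43.1, 47.0 and 104.3 CPM after saline (log2 fold change -2.03 ± 0.28, adjusted p = 0.0769). Plin5, which coats lipid droplets in oxidative tissues, had 88.7, 103.9, 152.6 and 163.6 CPM against 214.9, 267.2, 219.3 and 284.7 CPM after saline (-1.0 ± 0.16, adjusted p = 0.0973). In both genes every isoproterenol library was below every saline library. Cidea, a lipid droplet protein, was the member that stood higher, with 71.7, 59.6, 131.8 and 118.8 CPM after isoproterenol and 39.2, 56.1, 46.5 and 29.3 CPM after saline (1.09 ± 0.20, adjusted p = 0.151). The receptor genes themselves were near 0 in log2 fold change, with -0.19 for Ppara, -0.31 for Ppard and -0.09 for Pparg, none at an unadjusted p under 0.05.

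The median of the PPAR list was -0.81 in WT and -0.45 in Set7KO, and -0.48 with GC and length offsets. With these offsets and without Set7KO saline replicate 2 it was -0.33, and 11 members stood lower at an unadjusted p under 0.05. Without single libraries, 13 to 19 members stood lower at an unadjusted p under 0.05. Adipocytes also carry genes of this list. Summed over 9 measured adipocyte markers, the level was 445 to 679 CPM after isoproterenol and 387 to 629 CPM after saline, ranges that overlapped. Of these 9 markers 8 had a log2 fold change below 0, and 1 stood lower and 1 higher at an unadjusted p under 0.05. The median was -1.57, with 0.44 in WT and -3.13 in Set7KO. With a filter of 1 CPM in 2 libraries 4 of the markers remained, and their median was -0.31. Over the 18 alternatives the median ranged from -5.21 to -0.31, so its size depends on scarce genes and single libraries. The part of adipocytes in the lower PPAR list was not tested.

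Enzymes of fatty acid oxidation leaned the same way with smaller differences. Of 28 measured genes none passed, 24 had a log2 fold change below 0, 10 stood lower and 0 higher at an unadjusted p under 0.05, and the median was -0.28. Acaa2, a thiolase of mitochondrial beta-oxidation, had 731.7, 826.4, 1130 and 1258 CPM after isoproterenol and 1516, 2096, 1583 and 1340 CPM after saline (log2 fold change -0.75 ± 0.16, adjusted p = 0.190). Ech1, an isomerase of unsaturated fatty acid oxidation, had 968, 1097, 1616 and 2179 CPM against 2639, 3593, 2504 and 2370 CPM after saline (-0.98 ± 0.17, adjusted p = 0.118). In both genes the WT isoproterenol libraries were the lowest, and Set7KO isoproterenol replicate 2 was close to the saline range. The median of the list was -0.10 without Set7KO saline replicate 2, the largest move among the libraries left out, and 6 members stood lower without Set7KO isoproterenol replicate 2. Nuclear-encoded subunits of the respiratory chain had a median of -0.15, with 37 of 47 below 0 and 6 lower at an unadjusted p under 0.05. Their median was -0.34 in WT and 0.08 in Set7KO, and the number lower was 0 in the additive model, 2 with GC and length offsets and 0 to 13 without single libraries (0 without WT isoproterenol replicate 1 or 2, Set7KO isoproterenol replicate 1, WT saline replicate 2 or Set7KO saline replicate 1, and 13 without Set7KO saline replicate 2).

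Averaged over genotypes, genes of glucose use did not lean one way, while the medians of the genotypes had opposite signs. Of 33 measured genes 1 fell (Fbp2) and 0 rose. With an unadjusted p under 0.05, 6 stood higher and 5 lower. The list's median was -0.23 in WT, 0.37 in Set7KO and 0.03 over both genotypes. Without WT isoproterenol replicate 2 the number higher was 1. Pfkfb3, whose product makes the activator of phosphofructokinase, had 26.0, 31.0, 22.1 and 26.9 CPM after isoproterenol and 16.5, 9.02, 9.62 and 11.0 CPM after saline (log2 fold change 1.20 ± 0.22, adjusted p = 0.143), without overlap.

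**Figure D3:**
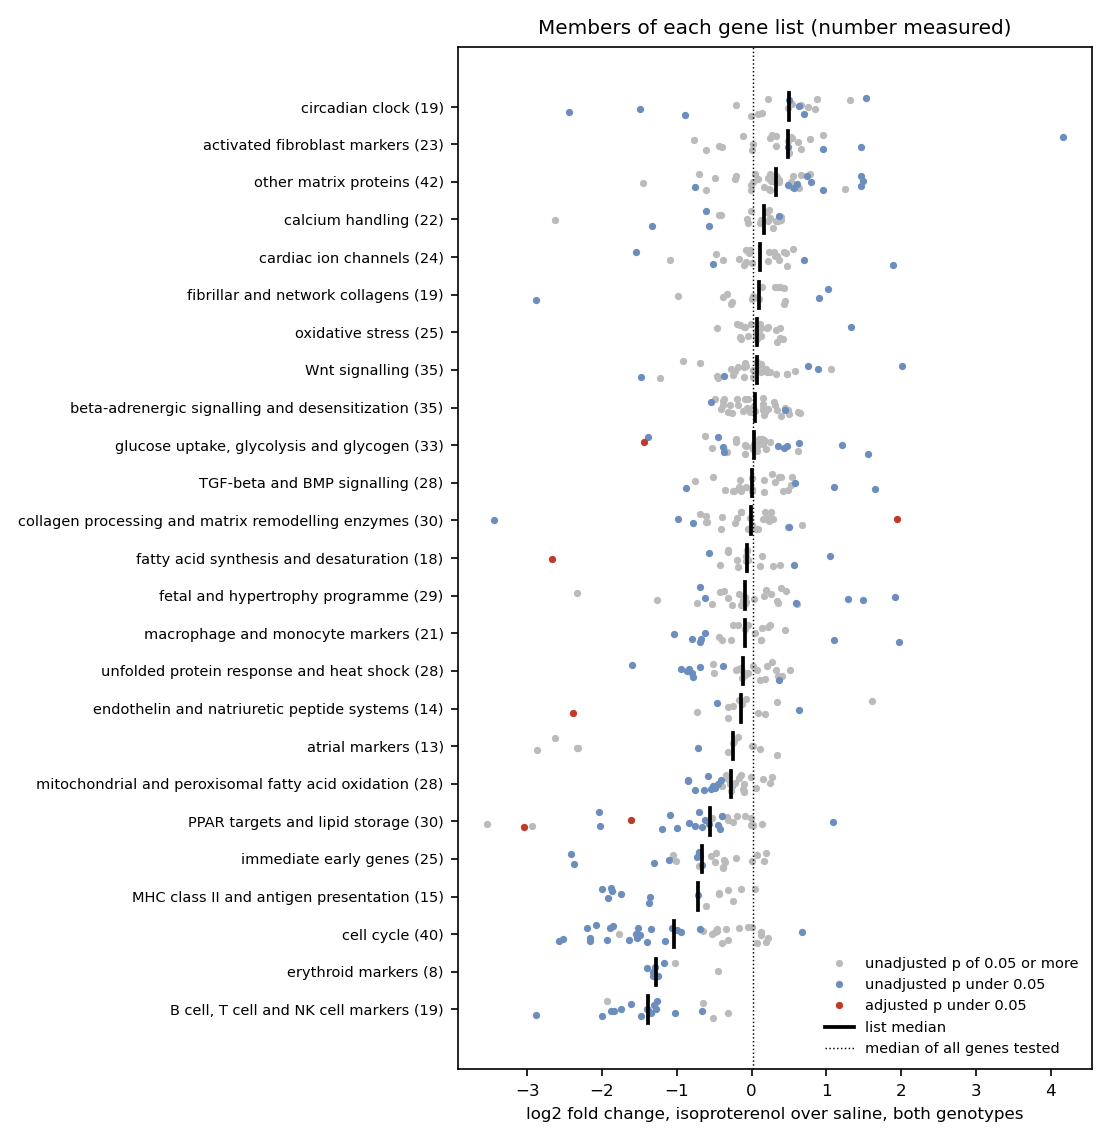
Log2 fold change of isoproterenol over saline, averaged over genotypes, for each measured member of 25 gene lists (points), with the list's median (bar) and the median of all genes tested (dotted line, 0.02). Red points passed an adjusted p of 0.05 and blue points an unadjusted p of 0.05; lymphocyte, erythroid, cell cycle, antigen presentation, immediate early and PPAR lists have the lowest medians, and the point at 4.17 is Cthrc1, with counts of 0 in both WT saline libraries.

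Genes of dividing cells stood lower after isoproterenol by their median, while their summed levels overlapped. Of 44 listed cell cycle genes 40 were measured and none passed. At an unadjusted p under 0.05, 22 stood lower (4.9% over all genes tested) and 1 higher (4.5%). In all 4 isoproterenol libraries 17 lay below every saline library (2.01% over all genes tested), and the median log2 fold change was -1.03. The summed level was 334, 326, 296 and 276 CPM after isoproterenol and 335, 358, 355 and 292 CPM after saline, so that Set7KO saline replicate 2 lay below 3 isoproterenol libraries. Mki67, the antigen of proliferating cells, had 0.545, 0.664, 0.482 and 0.366 CPM after isoproterenol and 0.970, 2.49, 2.89 and 3.09 CPM after saline (-2.16 ± 0.35, adjusted p = 0.0971). Top2a, the topoisomerase of dividing cells, had 0.386, 0.346, 0.693 and 0.256 CPM against 1.53, 2.09, 2.54 and 1.42 CPM after saline (-2.15 ± 0.38, adjusted p = 0.139). E2f2, a transcription factor of S phase entry, had 0.431, 0.491, 0.542 and 0.768 CPM against 1.27, 2.09, 2.34 and 2.59 CPM after saline (-1.89 ± 0.28, adjusted p = 0.0859). For Mki67 and E2f2 the lowest saline value was that of WT saline replicate 1. These transcripts were scarce, and the list's median was -0.74 without WT saline replicate 2. In heart tissue fewer cells of a type and less RNA per cell cannot be told apart.

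Lymphocyte and antigen presentation genes stood lower after isoproterenol. Of 19 measured B cell, T cell and NK cell markers none passed, all 19 had a log2 fold change below 0, 15 stood lower at an unadjusted p under 0.05, and the median was -1.39. Their summed level was 16.5, 12.1, 43.7 and 31.9 CPM after isoproterenol and 45.6, 60.8, 58.3 and 34 CPM after saline, lowest in the WT isoproterenol libraries and with an overlap at Set7KO saline replicate 2. The median log2 fold change of the list was -2.32 in WT and -0.45 in Set7KO, a difference that no single gene passed in the test of the interaction. Cd79a, a component of the B cell receptor, had 0.477, 0.346, 2.02 and 1.21 CPM after isoproterenol and 2.58, 2.85, 2.21 and 1.28 CPM after saline (-1.40 ± 0.30, adjusted p = 0.193). Of 15 antigen presentation genes none passed and 8 stood lower at an unadjusted p under 0.05, with a median of -0.71. Their summed level was 808, 1036, 1063 and 1395 CPM after isoproterenol and 1524, 2359.8, 2078 and 874 CPM after saline, so that Set7KO saline replicate 2 was the second lowest of all libraries. H2-Aa, a chain of MHC class II, had 13, 15, 33.4 and 31.4 CPM after isoproterenol and 61.1, 130.2, 70.3 and 36.3 CPM after saline (-1.74 ± 0.29, adjusted p = 0.114). Cd74, the class II invariant chain, had 31.5, 36.8, 93.7 and 112.1 CPM against 212.3, 395.8, 246.9 and 84.5 CPM after saline (-1.92 ± 0.35, adjusted p = 0.143), so that Set7KO saline replicate 2 lay below both Set7KO isoproterenol libraries.

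Macrophage markers had no common direction, and erythroid markers stood lower. Of 21 measured macrophage and monocyte markers none passed, 2 stood higher (Lgals3 and Gpnmb) and 5 lower with an unadjusted p under 0.05, and the median was -0.09. Of 8 measured erythroid markers none passed, 8 had a log2 fold change below 0 and 6 stood lower at an unadjusted p under 0.05, with a median of -1.27. With GC and length offsets and without Set7KO saline replicate 2 that median was -0.55. Hbb-bs, a beta globin, had 503.4, 415.6, 1394 and 883.9 CPM after isoproterenol and 1242, 1333, 1424 and 3665 CPM after saline (-1.32 ± 0.29, adjusted p = 0.196). The globin level was thus highest in Set7KO saline replicate 2 and overlapped between treatments. That library also held the highest summed level of neutrophil markers, 121.5 CPM against 5.92 to 16.4 CPM in the other 7 libraries, and the part of these cells in the results was not tested.

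**Figure D4:**
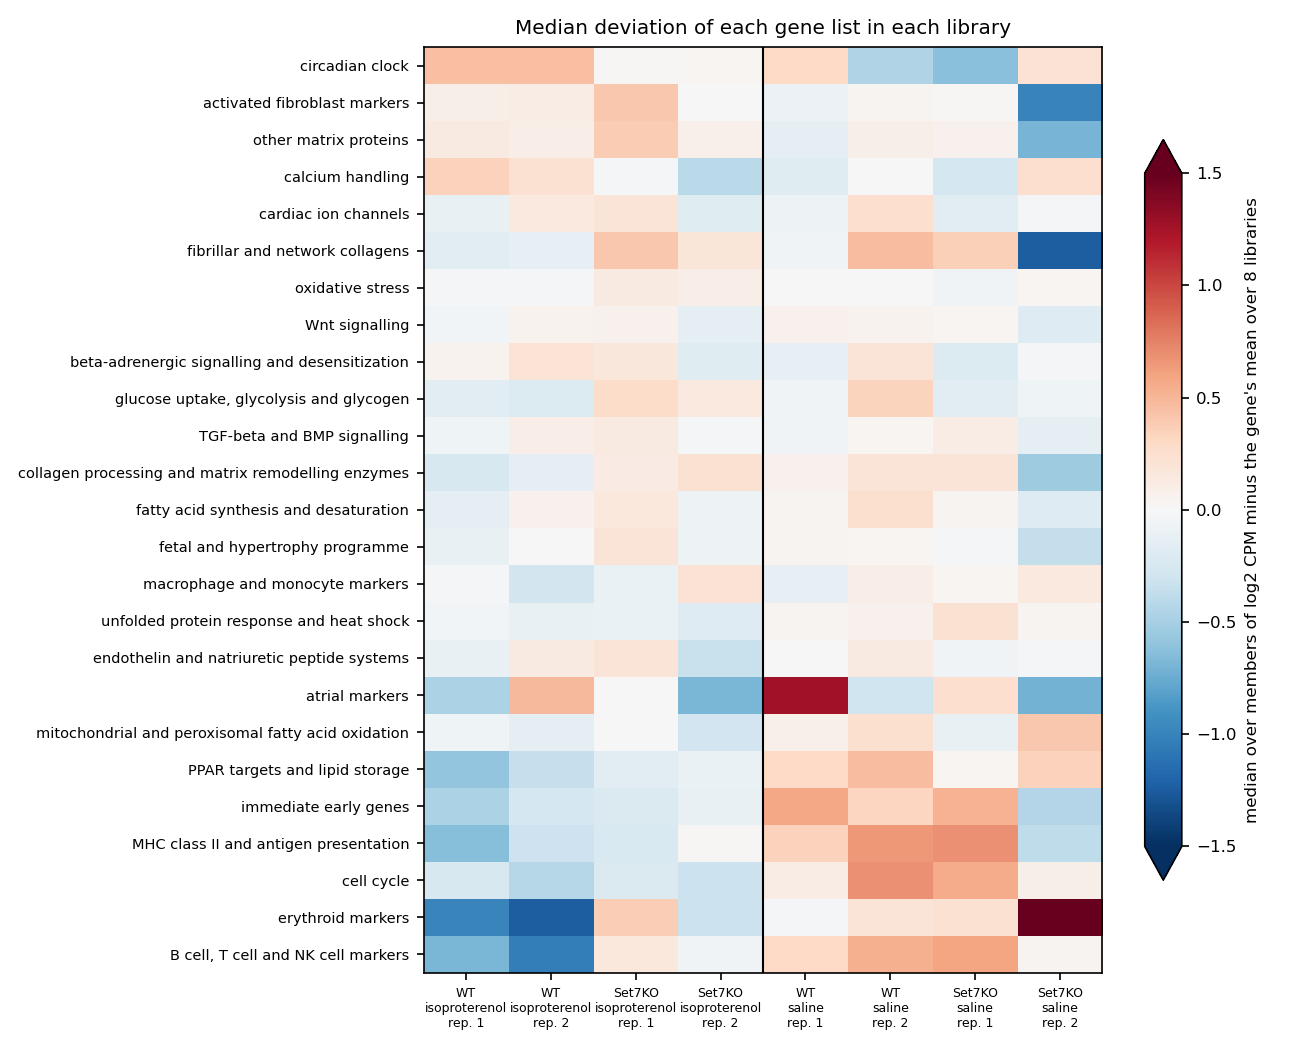
Median over the members of each gene list of log2 CPM minus the gene's mean over the 8 libraries, with isoproterenol libraries left and saline libraries right of the line. Cell cycle and PPAR lists are below 0 in all 4 isoproterenol libraries and above 0 in all 4 saline libraries, whereas collagens are lowest in Set7KO saline replicate 2 (-1.23) and atrial markers highest in WT saline replicate 1 (1.26).

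Averaged over genotypes, matrix and fibroblast genes leaned towards higher levels after isoproterenol. The fibrillar collagens overlapped. Medians were higher in Set7KO than in WT, but Set7KO saline replicate 2 was the lowest library for these lists. For matrix proteins its median deviation from each gene's mean was -0.697, against 0.069 in Set7KO saline replicate 1. For activated fibroblast markers the values were -0.999 and 0.023, and for collagens -1.23 and 0.357. Whether the genotype contrast holds without Set7KO saline replicate 2 was not tested. Of 42 measured matrix proteins other than collagens none passed, and 33 had a log2 fold change above 0. With an unadjusted p under 0.05, 9 stood higher and 1 lower. The list's median was 0.10 in WT, 0.50 in Set7KO and 0.33 over both genotypes. Ccn5, a matricellular protein of the CCN family, had 25.2, 23.3, 34.7 and 38.5 CPM after isoproterenol and 17.2, 9.18, 11.9 and 5.28 CPM after saline (log2 fold change 1.48 ± 0.30, adjusted p = 0.186). Thbs4, a thrombospondin of stressed heart muscle, had 10.4, 10.2, 20.8 and 11.5 CPM against 5.90, 6.73, 5.66 and 8.25 CPM after saline (0.96 ± 0.24, adjusted p = 0.241). In both genes all 4 isoproterenol libraries lay above all 4 saline libraries. Postn, the periostin gene of activated fibroblasts, had 35.5, 17.3, 15.8 and 5.96 CPM against 4.74, 6.93, 8.68 and 4.47 CPM after saline (1.46 ± 0.39, adjusted p = 0.284), with Set7KO isoproterenol replicate 2 inside the saline range.

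Of 23 measured markers of activated fibroblasts none passed, 18 lay above 0 and 4 stood higher at an unadjusted p under 0.05. Their median was 0.15 in WT, 0.56 in Set7KO and 0.49 over both genotypes. Without Set7KO saline replicate 2 this median was 0.25, with 3 higher and 4 lower, and without Set7KO saline replicate 1 the number higher was 12. Of 19 collagen genes none passed, and 2 stood higher (Col14a1 and Col8a1) and 1 lower (Col22a1) with an unadjusted p under 0.05. The collagen median was -0.35 in WT, 0.55 in Set7KO and 0.10 over both genotypes. Col14a1, which sits on collagen fibrils, had 32.6, 25.6, 29.0 and 27.4 CPM after isoproterenol and 17.9, 18.4, 17.5 and 8.63 CPM after saline (0.90 ± 0.23, adjusted p = 0.261). Col1a1 had 155.0, 162.8, 274.7 and 253.2 CPM against 162.5, 253.4, 265.7 and 65.6 CPM after saline (0.14 ± 0.38, adjusted p = 0.904), and Col3a1 had 347.8, 290.8, 470.9 and 363.8 CPM against 269.8, 378.5, 407.6 and 100.6 CPM after saline (0.35 ± 0.38, adjusted p = 0.752). Both had their lowest value in Set7KO saline replicate 2. Without that library the collagen median was -0.20, with 6 collagens lower, and the matrix protein median 0.17. Without Set7KO saline replicate 1, 12 collagens and 22 matrix proteins stood higher at an unadjusted p under 0.05. Tgfb1 and Ccn2, regulators of fibrosis, had log2 fold changes of 0.0042 ± 0.28 and 0.012 ± 0.18, and their sign changed between alternatives.

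Among matrix remodelling enzymes, Cpxm2 was the 1 gene of 30 that passed, and the median of the list was -0.01. Bambi and Wif1, given above, had the smallest p of the TGF-beta and BMP list (28 measured genes, median 0.01) and of the Wnt list (35 measured genes, median 0.07). In the Wnt list 3 genes stood higher and 2 lower with an unadjusted p under 0.05; Sfrp2 and Fzd2 were the others that stood higher.

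The classical hypertrophy markers did not move together. Of 29 measured genes of the fetal and hypertrophy programme none passed, 4 stood higher and 2 lower with an unadjusted p under 0.05, and the median was -0.08. Ankrd1, a stretch-responsive protein of the sarcomere, had 3024, 1903, 2527 and 2147 CPM after isoproterenol and 1125, 655.9, 1241 and 406.6 CPM after saline (log2 fold change 1.49 ± 0.36, adjusted p = 0.229). Fhl1, a LIM protein of muscle, had 502.0, 132.8, 447.4 and 214.4 CPM against 83.5, 85.4, 70.1 and 105.4 CPM after saline (1.91 ± 0.42, adjusted p = 0.193). Both were without overlap. Nppb, the B-type natriuretic peptide gene, had 154.9, 140.2, 210.4 and 181.4 CPM against 212.8, 467.7, 398.4 and 67.5 CPM after saline (-0.73 ± 0.48, adjusted p = 0.641). Acta1, the skeletal actin re-expressed in hypertrophy, had 455.5, 117.4, 547.2 and 192.0 CPM against 1044, 1413, 919.3 and 75.9 CPM after saline (-1.26 ± 0.72, adjusted p = 0.617). Myh7, the beta myosin heavy chain, had 5170, 5731, 5991 and 7135 CPM against 6511, 7045, 6475 and 6944 CPM after saline (-0.17 ± 0.13, adjusted p = 0.669). These 3 genes overlapped between treatments.

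Genes of the beta-adrenergic pathway itself differed little. Of 35 measured receptors, G proteins, cyclases, phosphodiesterases and kinases none passed, 1 stood higher (Grk5) and 1 lower (Adra1b) with an unadjusted p under 0.05, and the median was 0.05. Without Set7KO saline replicate 2, 5 stood higher and 5 lower. Adrb1, the main cardiac beta-adrenergic receptor, had 11.0, 14.8, 13.4 and 11.3 CPM after isoproterenol and 15.5, 21, 14.3 and 15.6 CPM after saline (log2 fold change -0.39 ± 0.19, adjusted p = 0.572), with WT isoproterenol replicate 2 just above Set7KO saline replicate 1. Grk5, a kinase that desensitizes the receptors, had 56.7, 49.7, 50 and 34.4 CPM against 26.0, 34.5, 34.1 and 45.4 CPM after saline (0.45 ± 0.19, adjusted p = 0.518). The 22 calcium handling genes had a median of 0.17, with none past the threshold, and Atp2a2, the calcium pump of the sarcoplasmic reticulum, had 8872, 10386, 9202 and 5384 CPM against 7789, 12450.0, 6358 and 17943 CPM after saline (-0.40 ± 0.33, adjusted p = 0.692).

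Immediate early genes, which follow recent stimulation, stood lower by their median, and protein folding genes leaned lower by a small median. Of 25 measured immediate early genes none passed and 9 stood lower at an unadjusted p under 0.05. Their median was -0.81 in WT, -0.27 in Set7KO and -0.67 over both genotypes. Without Set7KO saline replicate 1 the last was -0.23, and without Set7KO saline replicate 2 it was -0.79. The summed level was 471, 552, 573 and 667 CPM after isoproterenol. After saline it was 1100, 884, 895 and 443 CPM, so that Set7KO saline replicate 2 was the lowest of all libraries. Fos had 0.431, 1.13, 1.42 and 0.585 CPM after isoproterenol and 3.88, 2.82, 12.2 and 1.34 CPM after saline (log2 fold change -2.42 ± 0.67, adjusted p = 0.306). Of 28 genes of the unfolded protein response and heat shock none passed, 17 had a log2 fold change below 0 and 11 above, 8 stood lower and 1 higher at an unadjusted p under 0.05, and the median was -0.12 (-0.21 with GC and length offsets). Of these genes, 6 lay below every saline library (2.01% over all genes tested) and 0 lay above. The list's median deviation from each gene's mean was -0.04, -0.11, -0.10 and -0.19 after isoproterenol. After saline it was 0.04, 0.06, 0.23 and 0.04. The summed level of the list overlapped, with 6349.9 to 8616 CPM after isoproterenol and 6752 to 7625 CPM after saline. Calr, the calcium-binding chaperone of the endoplasmic reticulum, had 184.4, 228.8, 263.2 and 292.6 CPM against 353.5, 519.1, 463.5 and 407.7 CPM after saline (-0.86 ± 0.17, adjusted p = 0.186), without overlap. In the oxidative stress list of 25 genes Mt2, a metallothionein, stood higher, with 47.0, 48.3, 63.0 and 97.7 CPM against 24.7, 14.9, 20.9 and 40.6 CPM after saline (1.32 ± 0.27, adjusted p = 0.186), and no other member reached an unadjusted p under 0.05.

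The clock genes Arntl and Dbp went with treatment except in WT saline replicate 1, while atrial genes varied widely within each treatment. Arntl, the positive arm of the circadian clock, had 1.45, 2.54, 2.38 and 1.13 CPM after isoproterenol and 0.896, 18, 15.5 and 6.38 CPM after saline (log2 fold change -2.44 ± 0.77, adjusted p = 0.361). Dbp, an output gene in the opposite phase, had 242.6, 218.8, 342.3 and 468.9 CPM against 378.2, 47.6, 46.8 and 58.3 CPM after saline (1.53 ± 0.52, adjusted p = 0.391). WT saline replicate 1 thus stood with the 4 isoproterenol libraries in both clock genes, and the other 3 saline libraries stood apart. In the same library the 9 genes past the threshold lay on the saline side, which their lack of overlap between the treatments fixes. Without WT saline replicate 1 both clock genes were split by treatment. Leaving that library out therefore cannot tell the clock apart from treatment. Times of collection were not given in the sources used here, and the part of the clock in the differences was not tested.

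The atrial light chain Myl7 had 0.386, 97.1, 4.25 and 0.878 CPM after isoproterenol and 445.3, 5.30, 58.0 and 2.77 CPM after saline. Its level differed more between libraries of 1 treatment than between the treatments. Nppa, the atrial natriuretic peptide gene and a marker of hypertrophy in the ventricle, had 292.9, 569.1, 566.5 and 230.7 CPM after isoproterenol and 1606, 306.2, 359.0 and 195.2 CPM after saline (log2 fold change -0.31 ± 0.52, adjusted p = 0.838). The libraries with the highest Myl7 in each treatment, WT isoproterenol replicate 2 and WT saline replicate 1, also had the highest Nppa of their treatment. Without WT saline replicate 1 the log2 fold change of Nppa was 0.51. The chambers sampled were not given in the sources used here.

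**Figure D5:**
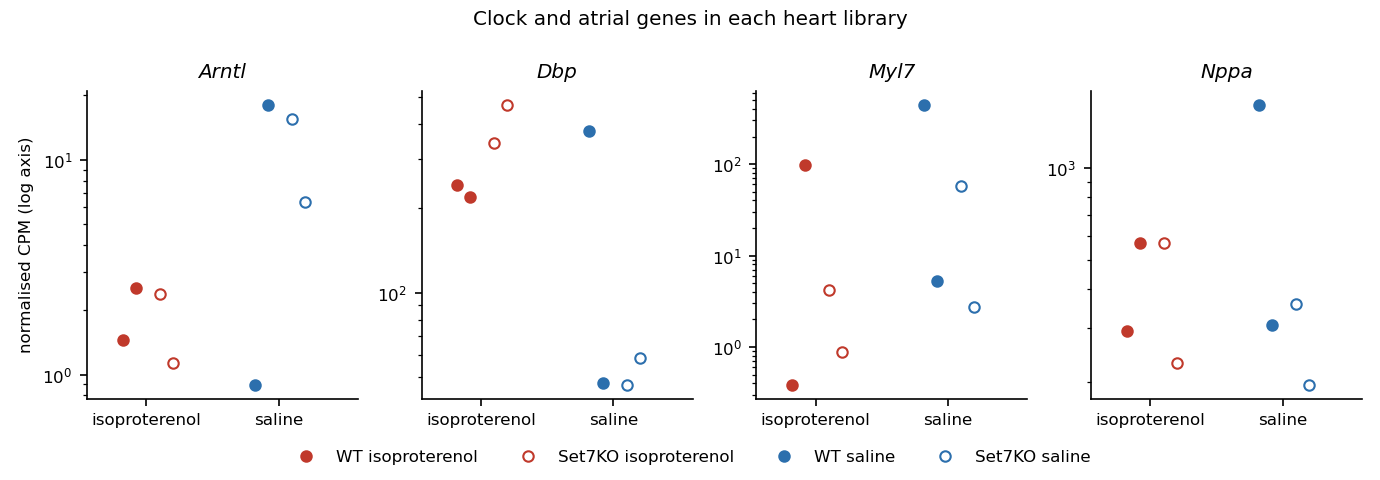
Normalised CPM on log axes of the clock genes Arntl and Dbp and the atrial genes Myl7 and Nppa in each library, isoproterenol left and saline right, WT filled and Set7KO open. One WT saline library (replicate 1) has the lowest Arntl (0.896 CPM), a Dbp level within the isoproterenol range, and the highest Myl7 (445.3 CPM) and Nppa (1606 CPM).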

How the data were processed

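Per the labels' protocols, total RNA of mouse hearts went into TruSeq stranded mRNA libraries, read on a NextSeq 500 for 75 cycles from 1 end. The authors deposited counts per gene, 1 column per library, as whole numbers for 55487 identifiers, of which 29066 had a count. Per the submitters' processing notes, the tools were HISAT2, HISAT, StringTie and edgeR and the genome build was GRCm38; their versions and roles and the use of strand were not given in the sources used here. Reads of antisense and overlapping genes may therefore be mixed. GENCODE release M21 named 55227 identifiers.

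Groups and treatments were taken from the labels. The 4 group means were fitted in edgeR 4.0.16 (R 4.3.3) with TMM normalization and filterByExpr, and the contrast averaged the isoproterenol minus saline differences of WT and Set7KO. Quasi-likelihood F-tests were two-sided with Benjamini-Hochberg adjustment over 17636 genes and a threshold of 0.05. The fit left 4 residual and 4.36 prior degrees of freedom (biological variation, as a coefficient, 28.4%). Standard errors come from the F statistic. The same fit tested the genotype by treatment interaction. The depth gives a floor of 3 counts, 0.0598 to 0.112 CPM by library, for counting error only.

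The members, gene lists and tests were chosen with earlier results of these data known. Lists were described by counts and medians and not tested. Genes named were those past the threshold; 10 in each direction with the smallest p among genes without overlap and at a mean of at least 2 CPM, leaving out gene models, pseudogenes and ribosomal protein genes; from each of 25 lists, the 4 smallest p among members averaging 1 CPM or more; and Setd7, Nppa, Nppb, Myh6, Myh7, Acta1, Ankrd1, Atp2a2, Adrb1, Col1a1, Col3a1, Postn, Ccn2 and Tgfb1. Cidea, Cthrc1, Ppara, Ppard, Pparg and the absent lung genes were named after their values were seen. Alternatives were limma-voom (limma 3.58.1), DESeq2 1.42.0, other normalizations and filters, an additive model, offsets for GC content and length, and leaving out each library. Some genes that the rule selects are left out of the text. The procedure was tested on simulated counts, drawn without GC-related shifts between libraries and without genotype effects. That test therefore does not cover these features of the data.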

Additional observations from a re-analysis of the deposited data

Results flagged for a closer look

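In 7 of 86 groups of 4 libraries of a treatment examined for the named genes, 1 library stood far from the other 3. Chance gives about 1 in 20 such groups if libraries are alike and groups independent. Here each group mixed 2 genotypes and the genes shared the same libraries, so 7 of 86 cannot be judged against that rate. After isoproterenol, Set7KO replicate 1 stood high for Cpxm2 (134.9 CPM, others 104.0 to 105.4), Pou3f1 (4.16 CPM, others 2.08 to 2.27), Ahnak2 (67.6 CPM, others 51.8 to 53.1) and Bambi (45.8 CPM, others 34.7 to 36). Each of these genes had higher levels after isoproterenol than after saline in all 4 libraries. Set7KO isoproterenol replicate 2 stood low for D7Ertd443e (2.20 CPM, others 4.42 to 4.73). After saline, WT replicate 2 stood high for Wif1 (3.78 CPM, others 1.38 to 1.71) and WT replicate 1 for Nppa (1606 CPM, others 195.2 to 359.0). The atrial gene Myl7 was also highest in that library, at 445.3 CPM, and the part of atrial tissue in the Nppa difference was not tested.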

How the results depend on the processing

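The number of genes past the threshold for isoproterenol against saline was 9. It was 1 in the additive model, 159 with no filter on low counts (29066 genes tested), 14 with limma-voom and 251 with DESeq2, and except in the additive model the 9 were among these. Leaving out single libraries gave 0 to 42. The direction of the 9 genes held in all 18 alternatives, which their lack of overlap between the treatments largely fixes. The interaction count of 0 became 2321 in DESeq2 and 0 to 5778 without single libraries. The count of genes without overlap, 728, became 2015 with GC and length offsets without Set7KO saline replicate 2, and 889 to 2110 without single libraries, where fewer libraries had to be separate. For the other changes the cause was not tested.

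The sign of 12 genes that did not pass turned in some alternative. Ccn2 was at -0.0045 and Tgfb1 at -0.013 on the log2 scale, both with DESeq2's size factors and in DESeq2. With GC and length offsets Setd7 was at -0.097. With Set7KO saline replicate 2 also left out, Setd7 was at -0.13, Myh7 at 0.014, Myh6 at 0.18 and Col3a1 at -0.37. Without single libraries the log2 fold change ranged from -0.16 to 0.20 for Ccn2, -0.26 to 0.41 for Tgfb1, -1.91 to 0.089 for Acta1, -0.69 to 0.059 for Atp2a2, -0.20 to 0.81 for Col1a1, -4.67 to 0.015 for Myl4, -0.72 to 0.51 for Nppa and -1.12 to 0.16 for Nppb. The cause was not tested. Of the other values of named genes under alternatives, 2005 kept their direction and side of the threshold, 67 no longer passed and 137 passed newly.

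No paired analysis was possible because the replicate numbers were given in accession order and pair no libraries, and no title letter is shared between the treatments. Depth limits scarce genes most: 3 counts correspond to 0.0598 to 0.112 CPM by library, and Edn3 stood at 0.271 to 0.548 CPM after isoproterenol.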
